A study of Homo sapiens with 5 samples.

Results

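The HMGA, IGF2BP, LIN28B and ARID3B genes are 7 oncofetal genes (HMGA2, HMGA1, IGF2BP1, IGF2BP2, IGF2BP3, LIN28B and ARID3B) out of 19775 genes with a probe set of their own on the array. They were chosen by name, and all 22 probe sets that the platform annotation lists for them were followed over the 5 arrays. The choice was made with signals of these arrays known, above all the brighter HMGA2 signal with miR-483-5p, so the values of the 7 genes are given as a description and without p-values. All RNA was from MHH-ES-1, a long-established line grown from a human Ewing sarcoma, taken 48 h after transfection with a cationic lipid reagent. The cells on every array had received a double-stranded RNA that mimics a microRNA, or its control, at 50 nM. The mimic was miR-483-5p on 2 arrays (called the 5p mimic from here on), a scrambled sequence on 2 (the control) and miR-483-3p, from the other arm of the same hairpin, on 1 (the 3p mimic). In each pair the labels describe one array as a repeat of the other and do not name separate cultures. The p-values therefore reflect how these arrays vary, which may be technical. A difference in signal cannot tell RNA per cell from the number of cells that carry it.

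HMGA1 and HMGA2 encode small chromatin proteins that bind AT-rich DNA through AT-hooks. IGF2BP1, IGF2BP2 and IGF2BP3 encode RNA-binding proteins with KH domains that bind and stabilise many mRNAs, IGF2 mRNA among them. LIN28B encodes an RNA-binding protein that blocks the maturation of let-7 microRNAs, and ARID3B encodes a DNA-binding protein with an ARID domain. These genes are active in the embryo, and most of them become quiet in most adult tissues and are active again in many tumours. Their mRNAs are known targets of let-7, so that LIN28B and let-7 hold each other in check.

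Mature let-7 sequences are shown because their shared seed is what pairs with sites in these mRNAs. The seed, bases 2 to 8 of the mature microRNA, is in capitals, and the sequences are those of RefSeq, build GRCh38.p14, written 5′ to 3′.
let-7a-5p: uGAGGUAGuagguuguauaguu
let-7b-5p: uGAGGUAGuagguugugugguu
let-7d-5p: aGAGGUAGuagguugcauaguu
A copy of let-7a lies at chr9:94175962-94175983 on the plus strand, let-7b at chr22:46113691-46113712 on the plus strand and let-7d at chr9:94178841-94178862 on the plus strand. The RefSeq table holds 9 distinct mature sequences of this family, and they share 1 seed. The mature microRNAs themselves were not measured here.

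The arrays were alike in overall signal, with a median probe set signal of 39.2 to 44.9 and a trimmed mean of 150 on each. All 9 Ewing sarcoma markers with a probe set lay above the filter on dim probe sets described next, with CD99 at 4381.4 to 5092.5 and the transcription factor gene NKX2-2 at 2443.5 to 2920.3. Their summed signal was 19588.7 and 21590.6 with the 5p mimic, 20575.6 and 21430.6 for the control, and 20106.9 with the 3p mimic. None of the 3 blood cell and 3 epithelial markers lay above the filter, against 1 of 3 endothelial and 3 of 4 fibroblast markers. The fibroblast markers, which include the collagen gene COL3A1, summed to 1244.8 and 1272.9 with the 5p mimic, 1148.5 and 1186.9 in the control and 939.6 with the 3p mimic. No marker was at 0 on all arrays, and the part of these levels in the results was not tested.

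Probe sets were tested for a difference between groups if their mean was not among the lowest 40% (a filter at a signal of 27.2). Of the 22 probe sets, 15 passed and 7 did not, among the latter 5 of 9 for HMGA2 and the only ones for LIN28B and ARID3B. Differences are of log2(signal + 32), and for dim probe sets this makes a change look smaller than it is. Of all 32770 probe sets, the 15 among them, 0% passed an adjusted p of 0.05 in limma in the comparison of the 5p mimic with the control. The genes were chosen with their signals known, so nothing is read from this for the 15. None passed in the comparison of the 3p mimic with the control or of both arms with each other either, where it was again 0%. At an unadjusted p under 0.05 there were 2732, 1832 and 1873 probe sets in the 3 comparisons.

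HMGA2 had a brighter signal with the 5p mimic in its brightest probe set and was nearer to the control in most of the others. Probe set 208025_s_at had signals of 599.6 and 492.2 with the 5p mimic, 293.6 and 248.4 in the scrambled control and 204.8 with the 3p mimic. The 5p arrays were thus above every other array, and the 3p array was below both controls. The difference between the 5p mimic and the control was 0.93 (SE 0.18), or 1.90-fold, and that between the 3p mimic and the control was -0.35 (SE 0.22). Set against each other, the 5p mimic was higher than the 3p mimic by 1.28 (SE 0.22). Among all 32770 probe sets tested, this difference ranked 20th from the highest, and that against the control ranked 61st. HMGA2 was chosen with its brighter 5p signal known, so nothing is read from these ranks. Without 1 array at a time, the difference from the control was 0.80 to 1.06. The ratio of the 3' to the 5' GAPDH probe set is a sign of RNA integrity. It was 1.09 and 1.10 with the 5p mimic, 1.02 and 0.996 in the control and 1.06 with the 3p mimic. Taken from ACTB probe sets instead, it was highest on the first 5p array, at 1.18, while the 5p repeat had 1.07. The control arrays had 1.07 and 1.04 by ACTB, and the 3p array had 1.09. Whether RNA integrity had a part in the HMGA2 difference was not tested.

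The dimmer HMGA2 probe sets gave smaller differences, and the arms did not keep one order across them. Probe set 1559891_at had 62.6 and 95.0 with the 5p mimic, 55.2 and 70.1 in the control and 41.2 with the 3p mimic. Its 5p and control arrays overlapped, with a difference of 0.22 (SE 0.20) that was 0.004 without the second 5p array, while the 3p array was the lowest of all, at -0.37 (SE 0.24) from the control. Probe set 1567224_at had 37.1 and 42.1 with the 5p mimic, 13.4 and 21.8 in the control and 35.1 with the 3p mimic. Both mimics were above both controls here, by 0.53 (SE 0.17) for the 5p mimic and 0.44 (SE 0.20) for the 3p mimic, so the 3p array lay on the other side of the controls than in 208025_s_at. Its controls were under the filter signal of 27.2, so that it passed through the mimic arrays and had to differ. Probe set 1558683_a_at had 42.9 and 38.3 with the 5p mimic, 21.5 and 48.6 in the control and 52.9 with the 3p mimic. The controls spanned both 5p arrays, and the differences were 0.14 (SE 0.22) and 0.37 (SE 0.27), the former being -0.15 or 0.44 when the first or the second control array is left out.

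**Figure D1:**
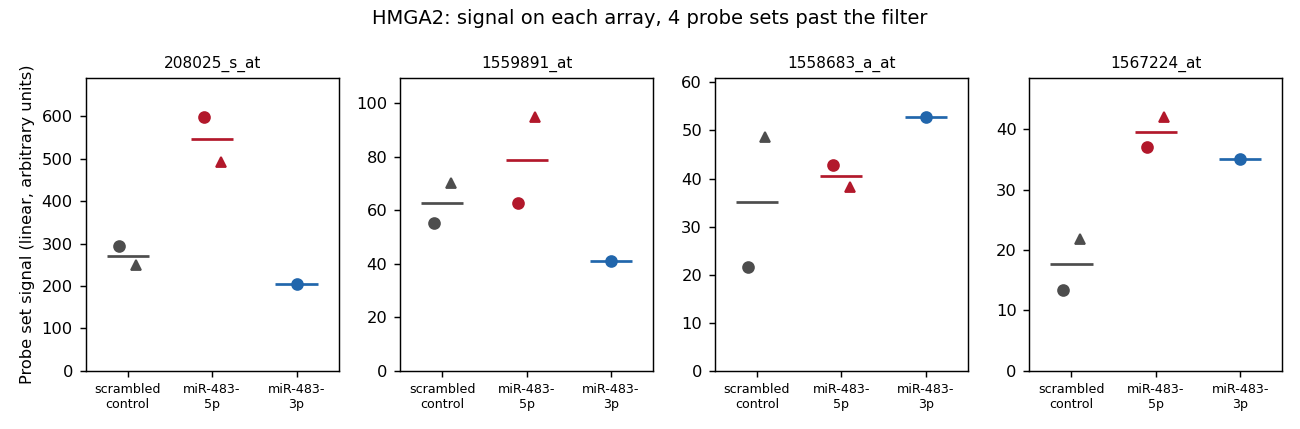
HMGA2 signal on each array (vertical axis, linear arbitrary units from 0, on a scale of its own in each panel) for the 4 HMGA2 probe sets past the filter, by group. Circles are the first arrays, triangles the repeats and lines the group means; the 5p arrays stand above all others in 208025_s_at (599.6 and 492.2), and the 3p mimic joins them above the controls in 1567224_at (35.1).

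The other 5 HMGA2 probe sets had signals of 0.4 to 37.5 and gave differences between the 5p mimic and the control of -0.06 to 0.11. These were 1558682_at, built on the same sequence record as 1558683_a_at, 1567223_at, on the same record as 1567224_at, and 1561633_at, 1568286_at and 1568287_at. Of the pair on one record, 1567224_at differed from the control by 0.53 and 1567223_at by -0.01, which became 0.03 with each array centred on its median and 0.01 after quantile normalization. The mean over all 9 probe sets gave 0.22 for the 5p mimic and 0.06 for the 3p mimic. The HMGA2 difference thus rested on 208025_s_at, and signals of different probe sets are not on one scale, so their brightness gives no order of transcripts.

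HMGA1 was near the control in one probe set and lower with the 5p mimic in the other. Its brighter probe set, 206074_s_at, had 1710.5 and 1529.1 with the 5p mimic, 1669.3 and 1689.4 in the control and 1851.0 with the 3p mimic. The 5p arrays lay on both sides of the controls, which were nearly equal, with a difference of -0.05 (SE 0.15), and the 3p array was the highest, by 0.14 (SE 0.19). Probe set 210457_x_at had 319.9 and 384.7 with the 5p mimic, 419.8 and 528.8 in the control and 468.6 with the 3p mimic. Both 5p arrays were below both controls here, by 0.39 on the log2 scale (SE 0.18), or 0.24 without the second control array, and the 3p array lay between the controls. HMGA1 has processed pseudogenes, and the x in the name of 210457_x_at marks probes that may match other sequences, so this signal is uncertain.

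**Figure D2:**
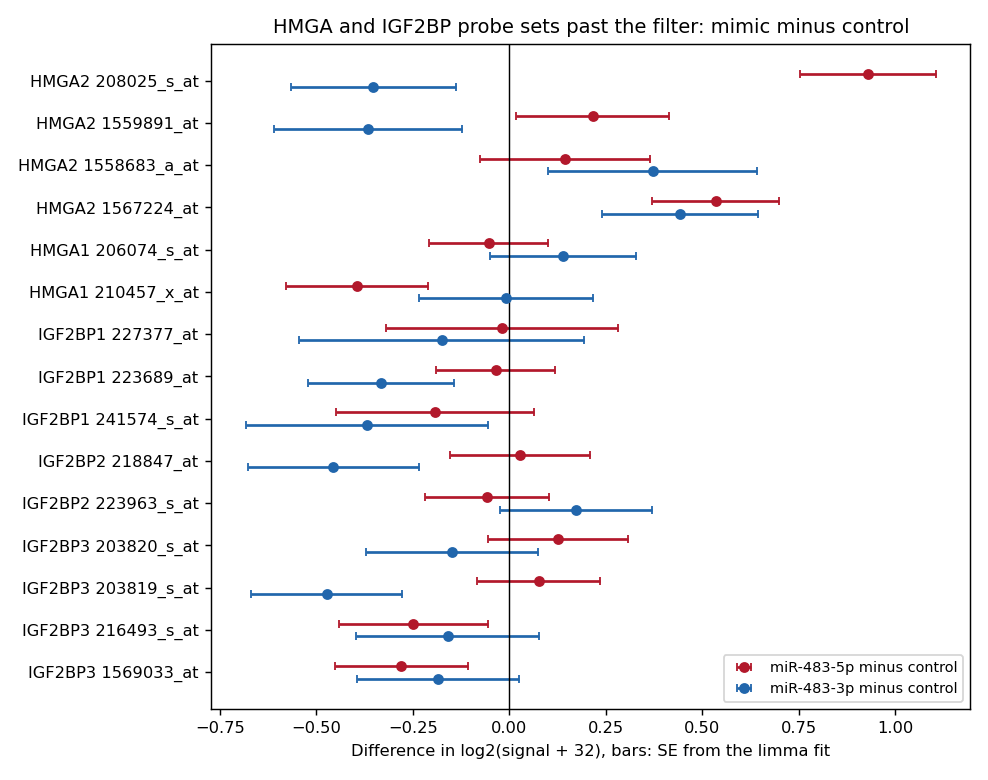
Difference in log2(signal + 32) from the scrambled control (horizontal axis) for the 15 HMGA and IGF2BP probe sets past the filter (vertical axis), with the 5p mimic in red and the 3p mimic in blue. Points are fitted differences and bars are 1 SE from limma; HMGA2 208025_s_at stands apart for the 5p mimic at 0.93, and both arms share the same 2 controls.

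IGF2BP1 differed between the 5p mimic and the control by less than 1 SE in each of its 3 probe sets. Probe set 227377_at had 518.8 and 311.8 with the 5p mimic, 524.9 and 316.9 in the control and 358.5 with the 3p mimic. Each first array was far above its repeat, by 0.68 in the 5p pair and 0.68 in the control pair, and the groups overlapped fully. The difference between groups was -0.02 (SE 0.30), and it ran from -0.36 to 0.32 as the first or the second 5p array was left out. Such an order of first array and repeat in both pairs was found in 4 of the 15 probe sets, and in 27.2% of all tested. Probe set 223689_at had 313.7 and 280.8 with the 5p mimic, 298.2 and 312.0 in the control and 235.7 with the 3p mimic, which was the lowest array. Its differences from the control were -0.04 (SE 0.15) and -0.33 (SE 0.19). The dim 241574_s_at had 38.6 and 87.9 with the 5p mimic, which enclosed the controls at 74.0 and 72.2, and 49.4 with the 3p mimic, for differences of -0.19 (SE 0.26) and -0.37 (SE 0.31).

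IGF2BP2, a gene that HMGA2 is reported to activate, was near the control with the 5p mimic in both of its probe sets. Probe set 218847_at had 299.3 and 361.7 with the 5p mimic, 359.3 and 289.0 in the control and 226.4 with the 3p mimic. The 5p and control arrays overlapped, with a difference of 0.03 (SE 0.18), and the 3p array was the lowest, at -0.46 (SE 0.22), or -0.31 and -0.60 against each control alone. Probe set 223963_s_at went the other way for the 3p mimic, with 139.7 against 127.2 and 113.7 in the control, and had 105.2 and 124.1 with the 5p mimic, for differences of 0.17 (SE 0.20) and -0.06 (SE 0.16). The antisense gene IGF2BP2-AS1 had 4 probe sets, all under the filter, at 3.3 to 49.5.

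IGF2BP3 was near the control with the 5p mimic in its brighter probe sets, and in one of these the 3p array was the lowest. Probe set 203819_s_at had 788.8 and 710.1 with the 5p mimic, 753.6 and 665.8 in the control and 501.3 with the 3p mimic. The 5p and control arrays overlapped, with a difference of 0.08 (SE 0.16), and the 3p array was below both groups, at -0.47 (SE 0.20) from the control and 0.55 (SE 0.20) below the 5p mimic. Probe set 203820_s_at had 920.4 and 839.6 with the 5p mimic and 914.3 and 704.7 in the control, and 721.0 with the 3p mimic lay between the controls. The dim probe sets 216493_s_at and 1569033_at were lower with the 5p mimic by 0.25 (SE 0.19) and 0.28 (SE 0.17) on the log2 scale. In 1569033_at both 5p arrays, at 34.3 and 45.8, were below the controls at 48.7 and 62.2, while in 216493_s_at the groups overlapped.

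Across the family, 8 of the 9 IGF2BP probe sets were lower with the 3p mimic than the control mean, under all 3 scalings, and 6 were below both controls. Of all 32770 probe sets tested, 16735 were lower than the control mean. Without the first control array, 227377_at was higher with the 3p mimic by 0.16 and 203820_s_at by 0.03. Of all probe sets tested, 35.6% were below both controls with the 3p mimic, and the IGF2BP median of -0.19 stands beside -0.01 over all. With the 5p mimic the same 9 had 3 higher and 6 lower, with a median of -0.04 beside -0.02 over all, and 1 of them was below both controls, where 21.2% of all were. With each array centred on its median, 227377_at changed sides and the split was 4 and 5. The 3p values rest on 1 array, and both comparisons share the 2 controls. Over all 15 probe sets, the 5p arrays were apart from the controls in 4, beside 39.8% of all tested, with 2 above (18.5% of all) and 2 below. The 3p array was outside the controls in 12, beside 68.1% of all, with 4 above (32.5%) and 8 below. Between the arms, the 5p arrays lay on one side of the 3p array in 11, beside 65.8% of all, with 7 above it (33%) and 4 below (32.8%). These signals chose the genes, so nothing is read from the shares.

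LIN28B and ARID3B were dim on all arrays. The LIN28B probe set 229349_at had 24.5 and 40.3 with the 5p mimic, 22.0 and 27.8 in the control and 21.9 with the 3p mimic. The 5p and control arrays overlapped, the repeat with the 5p mimic was the highest array, the 3p array was the lowest, and the difference from the control was 0.17 for the 5p mimic and -0.08 for the 3p mimic. The ARID3B probe set 218964_at had 10.3 and 10.4 with the 5p mimic, 10.8 and 9.2 in the control and 11.7 with the 3p mimic, a range within 3 units. No detection calls were used here, so whether either transcript lay above background is unknown. The antisense gene LIN28B-AS1 was also under the filter, at 13.3 to 23.4.

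**Figure D3:**
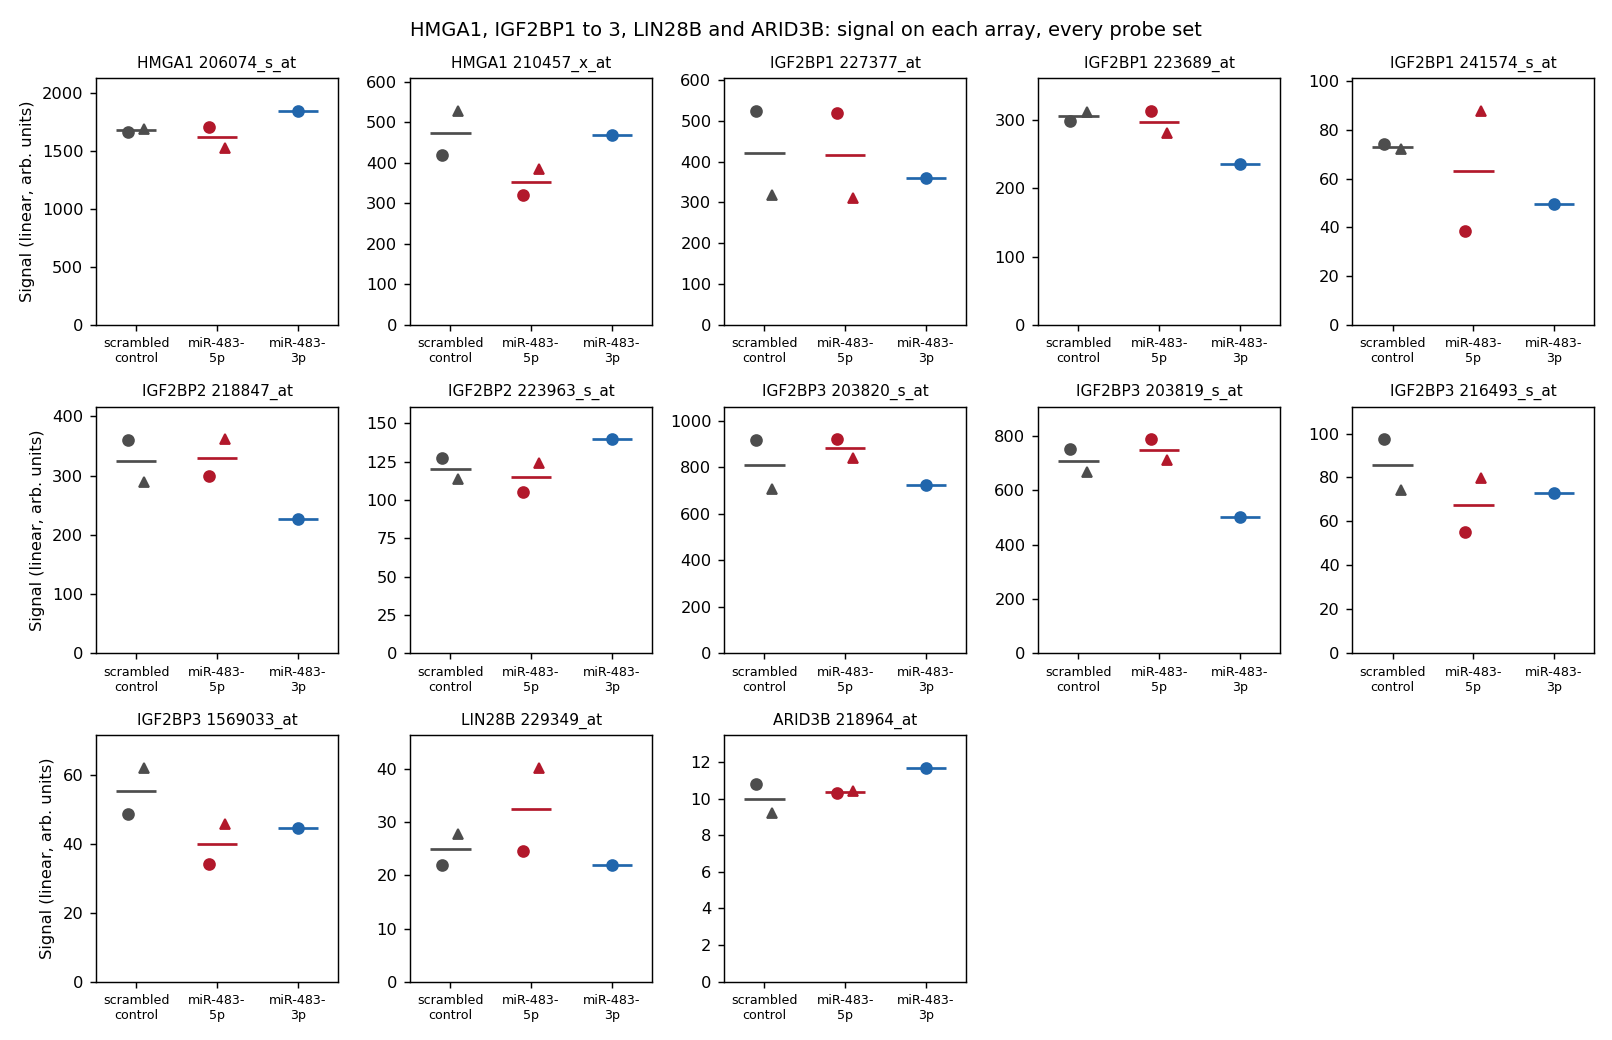
Signal on each array (vertical axes, linear arbitrary units from 0, on a scale of its own in each panel) for all 13 probe sets of HMGA1, IGF2BP1, IGF2BP2, IGF2BP3, LIN28B and ARID3B, by group. Circles are the first arrays, triangles the repeats and lines the group means; in IGF2BP1 227377_at the pairs repeat the same gap (518.8 and 311.8, 524.9 and 316.9), and in IGF2BP3 203819_s_at the 3p array is lowest at 501.3.

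The genes whose arrays followed 208025_s_at most closely were PLK2, UNC5C, MALAT1, OPN3 and RSL1D1. Likeness was the distance over the 5 arrays between log2 values, each probe set centred on its own mean, and these 5 had distances of 0.323 to 0.384. The polo-like kinase gene PLK2 had 211.0 and 162.1 with the 5p mimic, 89.0 and 86.1 in the control and 82.2 with the 3p mimic. The netrin receptor gene UNC5C had 61.6 and 67.1, then 21.3 and 23.8, then 11.1, in the same order of groups, and passed the filter through the 5p arrays. The long non-coding RNA gene MALAT1, by 223940_x_at, had 519.3 and 496.8 with the 5p mimic, 325.8 and 224.3 in the control and 252.4 with the 3p mimic. In all 3 the 5p arrays stood above every other array, as the measure of likeness implies. The other 3 HMGA2 probe sets past the filter were farther, and 2683 probe sets were nearer to 208025_s_at than the nearest of them, 1559891_at, at a distance of 0.970. Among the probe sets of HMGA1, IGF2BP1, IGF2BP2 and IGF2BP3 past the filter, 203819_s_at of IGF2BP3 came nearest, at 0.901.

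Genes that act on let-7 beside LIN28B differed from the control by -0.10 to 0.19 with the 5p mimic in their brightest probe sets. All 7 on that list were measured, namely LIN28A, TUT4, TUT7, DIS3L2, TRIM71, KHSRP and HNRNPA1. None passed limma's test for either mimic, where 0% of the 14591 genes did, nor did any of these brightest probe sets reach an unadjusted p under 0.05. Some dimmer probe sets of HNRNPA1, TUT7 and DIS3L2 did reach that unadjusted level. With the 5p mimic, 6 of the 7 were higher, with a median of 0.04 beside -0.01 over all genes, and 3 of 7 were higher without the second 5p array. With the 3p mimic, 4 were higher, with a median of 0.07. HNRNPA1, an RNA-binding protein known to hinder let-7 processing, had 1897.4 and 1944.9 with the 5p mimic, 1621.4 and 1748.7 in the control and 1877.8 with the 3p mimic. Its 0.19 above the control with the 5p mimic (SE 0.15) had the lowest p of this list (limma adjusted p = 0.768), and its dimmer probe sets gave 0.79 and 0.55. KHSRP, known to promote let-7 processing, differed by 0.16 with the 5p mimic and 0.25 with the 3p mimic, but its other probe sets past the filter gave 0.09, -0.16 and -0.29 with the 5p mimic and -0.01, 0.17 and -0.02 with the 3p mimic. LIN28A, the relative of LIN28B, differed by -0.10 and -0.06, TRIM71 by 0.01 and -0.12, and the uridylyl transferase gene TUT7 by 0.07 and -0.10, though by up to -0.47 and -1.13 in its other probe sets. DIS3L2 differed by 0.04 and 0.08, and its other probe sets past the filter gave 0.29 and 0.17 with the 5p mimic and -0.06 and 0.58 with the 3p mimic.

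Transcripts listed for let-7 genes were higher with the 5p mimic, in the 2 of 15 on that list that had a probe set past the filter. Only 3 of the 15 had a probe set at all. MIR99AHG had only probe sets under the filter, which differed by -0.04, -0.20 and 0.09 with the 5p mimic. The probe set listed for MIRLET7D, 227793_at, had 151.3 and 122.1 with the 5p mimic, 62.3 and 31.5 in the control and 84.4 with the 3p mimic. That of the host transcript MIRLET7BHG, 232480_at, had 164.4 and 145.6, then 82.4 and 74.0, then 91.7. In both, every mimic array was above both controls, where 20.3% of genes with the 5p mimic and 33.4% with the 3p mimic were. In either direction, 42.5% of genes with the 5p mimic and 68.8% with the 3p mimic lay apart from the controls. The differences for the 5p mimic were 1.12 (SE 0.23) and 0.76 (SE 0.16), each with an unadjusted p under 0.05 and a limma adjusted p of 0.516. For the 3p mimic they were 0.59 and 0.17 (limma adjusted p = 0.915 and 0.993). These probe sets do not measure the mature let-7 RNAs, and a second MIRLET7BHG probe set was under the filter and differed by -0.03 with the 5p mimic.

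Other reported let-7 targets did not move together. Of 15 measured, 6 were higher and 9 lower with the 5p mimic, with a median of -0.05, and 5 were higher and 10 lower with the 3p mimic, with a median of -0.09. The splits were 7 and 8 for both with median centring, and without the first control array 8 were higher with the 5p mimic. None passed limma's test, while 2 and 1 had an unadjusted p under 0.05, where 1269 and 750 of the 14591 genes did. The TGF-beta receptor gene TGFBR1 had 411.5 and 342.2 with the 5p mimic, 187.0 and 202.7 in the control and 208.6 with the 3p mimic. All mimic arrays were above both controls, by 0.85 with the 5p mimic (SE 0.17, limma adjusted p = 0.516) and 0.09 with the 3p mimic. Of all genes, 20.3% were above both controls with the 5p mimic and 33.4% with the 3p mimic. A dim second TGFBR1 probe set gave 0.75 and 0.58. Its control mean of 20.2 was under the filter signal, so that it passed through the mimic arrays and had to differ. The cell cycle phosphatase gene CDC25A differed by 0.65 (SE 0.19; limma adjusted p = 0.528), but by 0.26 and -0.24 in its other probe sets. The receptor gene IGF1R differed by 0.45 and the nuclear receptor gene NR6A1 by -0.38 with the 5p mimic (limma adjusted p = 0.659 and 0.680), with -0.08 to 0.22 in the other IGF1R probe sets and -0.23 to 0.10 in those of NR6A1. HRAS and the cyclin gene CCND2 differed by -0.24 and -0.23 with the 3p mimic. With the 5p mimic CCND2 differed by -0.10. Its other probe sets past the filter gave -1.04, -0.44 and -0.19 with the 5p mimic and -0.50, -0.12 and -0.01 with the 3p mimic. DICER1, which encodes the enzyme that cuts microRNA precursors, had 113.8 with the 3p mimic against 206.4 and 165.2 in the control. Its difference of -0.57 had a limma adjusted p of 0.864, and its other probe sets past the filter gave -0.90 and -0.56, whereas with the 5p mimic the same 3 gave -0.05, 0.05 and -0.29.

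The other high mobility group genes were all higher than the control with both mimics, 10 of 10 measured, under all 3 scalings. Their median was 0.25 with the 5p mimic and 0.12 with the 3p mimic, beside -0.01 and -0.001 over all genes, of which 48.5% and 49.8% were higher. None passed limma's test, and 3 had an unadjusted p under 0.05 with the 5p mimic and 1 with the 3p mimic, beside 1269 and 750 of all 14591 genes. Without the first control array, 8 of 10 were higher with the 5p mimic and 7 of 10 with the 3p mimic. HMGB3, a DNA-binding HMG-box gene, had 1238.1 and 1424.0 with the 5p mimic, 842.2 and 1038.0 in the control and 1227.1 with the 3p mimic. It was 0.49 above the control with the 5p mimic (SE 0.18; limma adjusted p = 0.573) and 0.69 in its second probe set. HMGN5, a nucleosome-binding gene, had 254.6 and 260.5 with the 5p mimic, 188.3 and 177.9 in the control and 260.5 with the 3p mimic. It was higher by 0.43 and 0.44 (limma adjusted p = 0.565 and 0.884), but by 0.07 and 0.10 in its dimmer probe set. HMGB2 was higher by 0.41 and HMG20B by 0.37 with the 5p mimic, and HMGN4 by 0.23 with the 3p mimic. In 6 of the 10 genes the 5p arrays were above both controls, where 20.3% of all genes were, and in 6 the 3p array was, where 33.4% were.

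**Figure D4:**
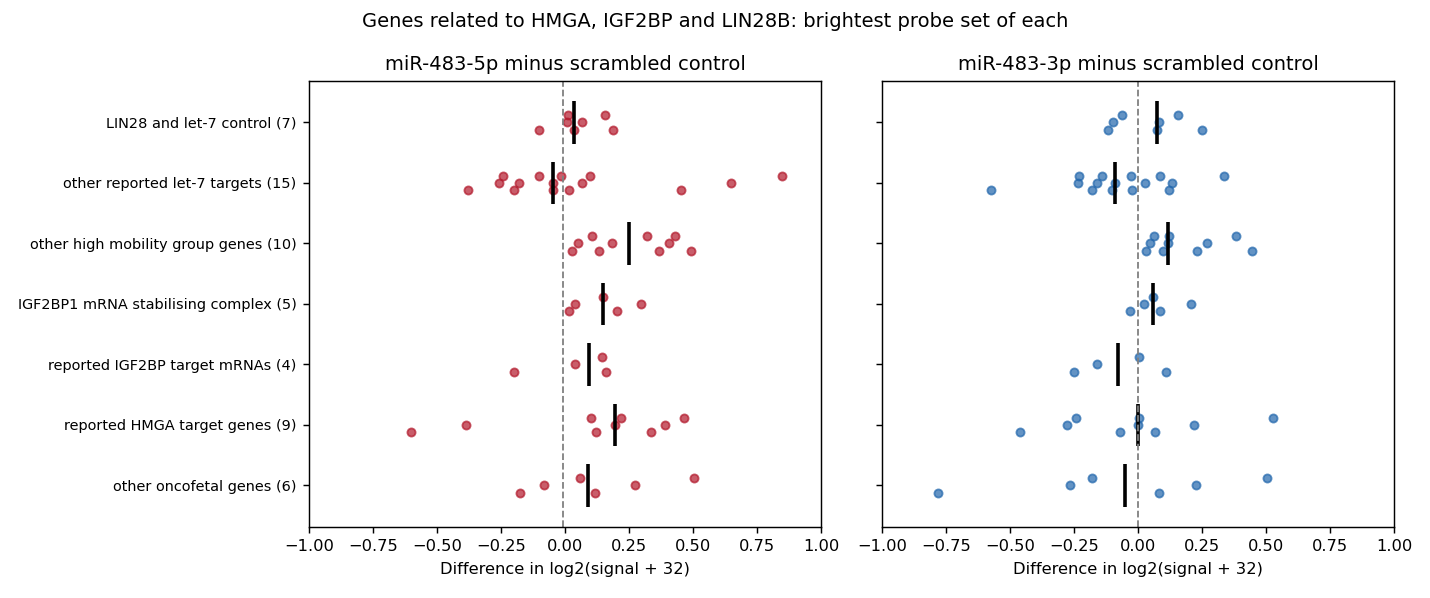
Difference in log2(signal + 32) from the scrambled control (horizontal axis) for the 5p mimic on the left and the 3p mimic on the right, 1 point for the brightest probe set of each measured gene, by list (vertical axis, number of genes in brackets). Black bars are list medians and dashed lines the median over all 14591 genes; all 10 other high mobility group genes lie above 0 in both panels, with medians of 0.25 and 0.12.

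Reported HMGA targets split by gene. Of 9 measured, 7 were higher and 2 lower with the 5p mimic, with a median of 0.19, and 5 were higher and 4 lower with the 3p mimic, with a median of 0.001. The latter split was 3 and 6 after quantile normalization and also without the second control array. None passed limma's test, and 3 and 2 had an unadjusted p under 0.05 (1269 and 750 of the 14591 genes). The DNA repair gene ERCC1 had 320.5 and 306.3 with the 5p mimic, 499.5 and 484.4 in the control and 348.1 with the 3p mimic. It was lower with both mimics, by 0.60 and 0.46 on the log2 scale (limma adjusted p = 0.518 and 0.864), but its other probe sets gave -0.25 and 0.12 with the 5p mimic. The cyclin gene CCNA2, reported as raised by HMGA2, had 1459.4 and 1251.4 with the 5p mimic, 1068.7 and 981.7 in the control and 1026.7 with the 3p mimic. It was higher with the 5p mimic by 0.39 (limma adjusted p = 0.599) and by 0.29 in its second probe set. The DNA repair gene BRCA1 was higher by 0.46 and 0.53 (limma adjusted p = 0.557 and 0.827), with 0.06 and 0.42 in its second probe set. The cyclin gene CCNB2 differed by 0.34 with the 5p mimic, and the transcription factor genes PLAG1 and SNAI2 by -0.28 and -0.24 with the 3p mimic.

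Among partners and reported target mRNAs of the IGF2BP proteins no gene passed the test. All 5 genes of the mRNA-stabilising complex around IGF2BP1 were higher with the 5p mimic, with a median of 0.15, or 3 of 5 without the second 5p array and 3 of 5 without the first control array. With the 3p mimic 4 of 5 were higher, with a median of 0.06, or 1 of 5 without the first control array. None passed limma's test or had an unadjusted p under 0.05. The helicase gene DHX9 had 1822.3 and 1821.5 with the 5p mimic, 1404.2 and 1554.1 in the control and 1708.7 with the 3p mimic. Its other probe sets gave -0.21 (SE 0.38) and -0.52 (SE 0.59) with the 5p mimic, but their 5p arrays enclosed the controls. They had 486.0 and 1207.5 against 828.8 and 959.8, and 167.7 and 807.2 against 518.8 and 593.8. ELAVL1, HNRNPU and SYNCRIP differed by 0.20, 0.15 and 0.04 with the 5p mimic and by 0.06, 0.09 and -0.03 with the 3p mimic, and each had at least 1 other probe set lower than the control with the 5p mimic. Of 4 reported target mRNAs with a probe set of their own past the filter, 3 were higher and 1 lower with the 5p mimic (1 of 4 higher without the first control array). With the 3p mimic 2 were higher and 2 lower (1 higher without the first control array, and 1 after quantile normalization). None of these 4 passed limma's test or had an unadjusted p under 0.05 with either mimic in its brightest probe set. CD44, BTRC and ACTB differed by 0.16, 0.14 and 0.04 with the 5p mimic and by -0.25, 0.11 and 0.003 with the 3p mimic. Other probe sets past the filter gave -0.26 and -0.17 for CD44 and -0.20 and 0.02 for BTRC with the 5p mimic, and -0.71, -0.49, -0.40 and -0.25 in that order with the 3p mimic. MYC was lower with the 5p mimic, at 2321.1 and 2467.0 against 2672.9 and 2832.9, and had 2456.5 with the 3p mimic (limma adjusted p = 0.755 and 0.993). IGF2 and H19 are also on that list, but share their probe sets with other genes and are not among the 4. The 3 probe sets shared by IGF2 and INS-IGF2 differed by 0.95, 1.52 and 1.12 with the 5p mimic and by 0.23, 0.11 and 0.06 with the 3p mimic. The brightest, 202409_at, had an unadjusted limma p of 0.0015 with the 5p mimic (limma adjusted p = 0.516). IGF2 was to be named in any case, and the lists were chosen with earlier results known, so nothing is read from this p. Those shared by H19 and MIR675 differed by 0.15, under the filter, and -0.10 with the 5p mimic. The IGF2 probe sets 202410_x_at and 210881_s_at were at 9.4 to 16.6 on the control and 3p arrays, so they passed the filter through the 5p arrays and had to differ.

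ARID3A, the relative of ARID3B with which its protein can pair, had 139.6 and 106.2 with the 5p mimic, 204.2 and 152.6 in the control and 117.7 with the 3p mimic. All mimic arrays were below both controls, by 0.44 and 0.48 on the log2 scale (limma adjusted p = 0.620 and 0.936), where 22.2% and 35.4% of genes were. Its second probe set gave 0.01 with the 5p mimic and -0.41 with the 3p mimic. Of 8 other oncofetal genes, 6 passed the filter, and 4 were higher and 2 lower with the 5p mimic, 3 and 3 with the 3p mimic, with none past limma's test and 0 and 1 at an unadjusted p under 0.05 (1269 and 750 of the 14591 genes). The one at that level was the placental gene PLAC1, at 17.0 with the 3p mimic against 71.2 and 36.7 in the control. The fetal serum protein gene AFP and the transcription factor gene SALL4 were under the filter, at 7.9 to 31.4 and 13 to 25.2. CEACAM5, a cell surface glycoprotein gene, differed by 0.50 with both mimics (limma adjusted p = 0.679 and 0.963) and by 0.14 and 0.04 in its second probe set, GPC3 by 0.12 and -0.27 and DLK1 by -0.18 and 0.08. The retrotransposon-derived gene PEG10 had 2124.7 and 1743.9 with the 5p mimic, 1624.8 and 1551.6 in the control and 1860.6 with the 3p mimic. A second PEG10 probe set gave -0.29 with the 5p mimic, where the 5p arrays at 542.8 and 972.5 enclosed the controls at 839.2 and 964.6.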

How the data were processed

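The authors deposited 1 intensity per probe set, on a linear scale, for each Affymetrix HG-U133 Plus 2 array, and the values show a trimmed mean of 150 on every array. GCOS and Partek are named in the submitters' processing notes, without versions or roles, and how probes were summarised is not stated there. Affymetrix controls (62 probe sets) did not enter the fit. In the platform annotation, 41097 probe sets have 1 gene, 1801 several and 11777 none, and those with 1 gene were named, with symbols updated through RefSeq. The fit was limma 3.58.1 in R 4.3.3 on log2(signal + 32), 1 mean for each group, all 5 arrays in the fit, 2 residual and 4.66 prior degrees of freedom, two-sided tests and Benjamini-Hochberg adjustment over 32770 probe sets at 0.05. It was tested on simulated data. The lone miR-483-3p array is assumed to vary like the other groups. Lists use the brightest probe set of each gene, and from each list the 4 genes with the lowest p for each mimic were named, with DHX9, IGF2 and H19 always given and other genes of a list named beside them. Genes most like HMGA2 were the 5 with the smallest distance over the arrays, and no correlation over 5 arrays was used. Genes of interest and lists were chosen with earlier results of these data known. The sequences of the miR-483 arms are not used here. Precision is limited by having 5 arrays.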

Additional observations from a re-analysis of the deposited data

How the results depend on the processing

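No probe set was called in any of the 3 comparisons under median centring, quantile normalization, no filter on dim probe sets or a stricter one (60th percentile), the brightest probe set per gene, a variance prior with an intensity trend, pseudocounts of 1 and 100, without each of the paired arrays in turn (0 in each case) or with the replicate block of first arrays against repeats (0 in each comparison). The labels do not pair first arrays with each other, so the block is a number alone. Alternatives chosen after seeing the data joined the brightest probe set per gene with a further choice. For miR-483-5p against the control this gave 37 called genes with median centring, 33 with a pseudocount of 100 and 39 with an intensity trend; no call is read for HMGA2, since this contrast chose it. With miR-483-3p, these counts were 2, 1 and 1, and for the arms against each other 7 with median centring. The HMGA2 difference for 208025_s_at was 0.96 with median centring, 0.92 after quantile normalization and 0.80 to 1.06 without 1 array at a time. The mean over all 9 HMGA2 probe sets, which is not a value of 208025_s_at, was 0.22. The cause of these shifts was not tested. Of 66 differences followed, 39 kept their sign under every alternative run. Signal over background is unknown without detection calls.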
